A study of Mus musculus with 77 samples.

Results

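Acyl-CoA thioesterases cut the bond between a fatty acid and coenzyme A, the carrier that marks a fatty acid for oxidation or synthesis, and set both free. Each compartment of the liver cell has its own forms, so the enzymes govern how much free coenzyme A and activated fatty acid a compartment holds. PPARA, a nuclear receptor for fatty acids and for plasticiser metabolites, switches on several of them in rodent liver together with the enzymes of peroxisomal and mitochondrial fatty acid oxidation. The genes described here are the 5 acyl-CoA thioesterases Acot1, Acot2, Acot3, Acot4 and Acot8, chosen by name out of 18138 array IDs of the deposited signal table. Acot1 encodes the cytosolic form and Acot2 the mitochondrial form, and both act on long-chain acyl-CoAs. Acot3, Acot4 and Acot8 encode peroxisomal forms: in mice Acot3 acts on long-chain acyl-CoAs, Acot4 mainly on succinyl-CoA and other short dicarboxylic acyl-CoAs, and Acot8 on a broad range that includes bile acid CoA esters.

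The samples were livers of male B6C3F1 mice exposed for 7 days, measured as total RNA on 1-colour Illumina bead arrays. Di(2-ethylhexyl) phthalate (DEHP) was given at 750, 1500, 3000 and 6000 ppm, n-butyl benzyl phthalate (BBP) at 1500, 3000, 6000 and 12000 ppm, and di-n-octyl phthalate (DNOP) at 1250, 2500, 5000 and 10000 ppm, and all 12 groups shared 10 phthalate controls at 0 ppm. Phenobarbital (PB), a drug that acts through another nuclear receptor, CAR, was given at 75, 150, 300 and 600 ppm and had 4 controls of its own. Each dose group had 4 samples except 10000 ppm DNOP, which had 3, so the 18 groups held 77 samples. The labels write most phthalate doses with a bare K and do not name the medium, and these were read as ppm. DEHP and DNOP are isomers whose alcohol chains are branched in DEHP and linear in DNOP, while BBP carries a butyl and a benzyl group. Each sample has a number with a letter whose meaning the labels do not give. The 10 phthalate controls carry 4 such numbers, the 3 controls numbered 32 share the mark REP1, and nothing says which samples are separate animals. Each PB dose group carries 2 numbers and the PB controls 3, while every sample of a phthalate dose group has its own. The number entered the fit as a random block, with 1 correlation of 0.0986 shared by all genes, and p-values measure the spread between samples.

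Acot1, Acot2, Acot3 and Acot4 are neighbours. In the mouse RefSeq annotation (build GRCm38.p6) Acot2 lies at chr12:83987861-83993877, Acot1 at chr12:84009502-84017670, Acot4 at chr12:84037254-84044723 and Acot3 at chr12:84052144-84060400, within 72.54 kb of chromosome 12. Acot8 lies apart, at chr2:164792768-164820219. PPARA binds DNA beside its partner RXR at repeats of the letters AGGTCA with 1 base between them. A window of 300 bases per gene was therefore read from RefSeq's promoter table and searched for AGGTCA on both strands. Each window holds 250 bases before and 50 after the start that this promoter table uses, which need not be the edge of the span given above. The 4 windows of the chromosome 12 group are printed because these neighbours were all higher at the upper DEHP doses. Each runs 5′ to 3′ on the plus strand, with any AGGTCA, or TGACCT where it lies on the other strand, in capitals.
Acot2, chr12:83987611-83987910: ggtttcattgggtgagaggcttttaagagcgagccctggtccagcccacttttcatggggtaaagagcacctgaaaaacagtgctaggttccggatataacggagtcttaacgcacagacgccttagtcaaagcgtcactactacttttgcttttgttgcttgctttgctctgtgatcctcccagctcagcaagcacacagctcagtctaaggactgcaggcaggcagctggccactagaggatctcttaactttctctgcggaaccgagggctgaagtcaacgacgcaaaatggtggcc
Acot1, chr12:84009252-84009551: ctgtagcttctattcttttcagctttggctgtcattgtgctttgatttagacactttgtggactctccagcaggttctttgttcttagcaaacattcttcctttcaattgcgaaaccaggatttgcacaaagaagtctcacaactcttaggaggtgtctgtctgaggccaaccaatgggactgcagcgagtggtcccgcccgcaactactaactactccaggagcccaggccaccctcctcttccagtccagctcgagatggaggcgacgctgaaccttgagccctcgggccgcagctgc
Acot4, chr12:84038129-84038428: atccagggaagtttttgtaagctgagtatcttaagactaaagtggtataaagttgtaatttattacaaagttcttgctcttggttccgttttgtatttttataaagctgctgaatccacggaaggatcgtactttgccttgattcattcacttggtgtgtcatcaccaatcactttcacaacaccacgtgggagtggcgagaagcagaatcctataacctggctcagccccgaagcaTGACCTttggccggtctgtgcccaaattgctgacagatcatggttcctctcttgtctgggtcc
Acot3, chr12:84051894-84052193: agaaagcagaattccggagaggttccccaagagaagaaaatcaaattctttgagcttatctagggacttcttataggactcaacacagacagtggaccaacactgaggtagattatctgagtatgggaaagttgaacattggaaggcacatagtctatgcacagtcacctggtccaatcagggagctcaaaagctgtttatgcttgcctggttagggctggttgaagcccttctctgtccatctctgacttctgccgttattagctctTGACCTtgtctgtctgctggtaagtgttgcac

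The single element was present in the windows of Acot4 and Acot3, once in each and on the minus strand, and in none of the windows of Acot1, Acot2 and Acot8. Counted with the start used by the promoter table as 0, its first printed base is at position -13 in Acot4 and at position 18 in Acot3. The same letters occur in 16.3% of all 32851 promoter windows, so 2 of 5 members is a description. The full repeat, with no overlap between its elements, was in none of the 5 windows and in 0.0396% of all windows. Such a match is a run of letters and not a measured site. The windows of Acot4 and Acot8 lie inside the annotated spans of their genes, away from the span edge where each gene begins. For Acot4 the window begins at 84038129 and the span at 84037254. Acot8 is on the minus strand, with its window at chr2:164804832-164805131 and its span ending at 164820219.

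Levels are given as log2 intensity after background correction and normalization between arrays, and a level of 1 gene cannot be set against that of another because each probe has its own brightness. A gene counts as detected on an array where its detection p, the authors' test against negative control beads, is under 0.05. Counts may not be on 1 footing across genes, because many p-values of Acot1, Acot2 and Acot8 lay off the steps shared by most p-values. Acot4 was detected on 77 of 77 arrays, Acot8 on 76 and Acot1 on 70. Acot3 was detected on 45 arrays and Acot2 on 35, so the controls of these 2 genes lie mostly at background. Acot3 was detected on 3 of 10 phthalate controls and on 0 of 4 PB controls, Acot2 on 2 and 1. A gene was called changed at a Benjamini-Hochberg adjusted p under 0.05, from 1 limma fit of all 77 samples over the 11324 genes tested.

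The phthalate controls were not uniform. The 3 controls that carry number 32 had Acot1 levels of 10.40 ± 0.48, against 7.06 ± 0.59 in the 7 controls with other numbers (SD). The same 3 samples were higher for Acot3 (6.59 ± 0.40 against 4.5 ± 0.16), Acot4 (7.68 ± 0.71 against 6.31 ± 0.31) and Acot8 (8.84 ± 0.28 against 7.94 ± 0.20). Acot2 overlapped between them (4.64 ± 0.11 against 4.54 ± 0.14). Every change against the phthalate controls is therefore also given without the controls numbered 32 where a call depends on them. Whether the number marks a cage, an animal or a batch was not tested.

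**Figure D1:**
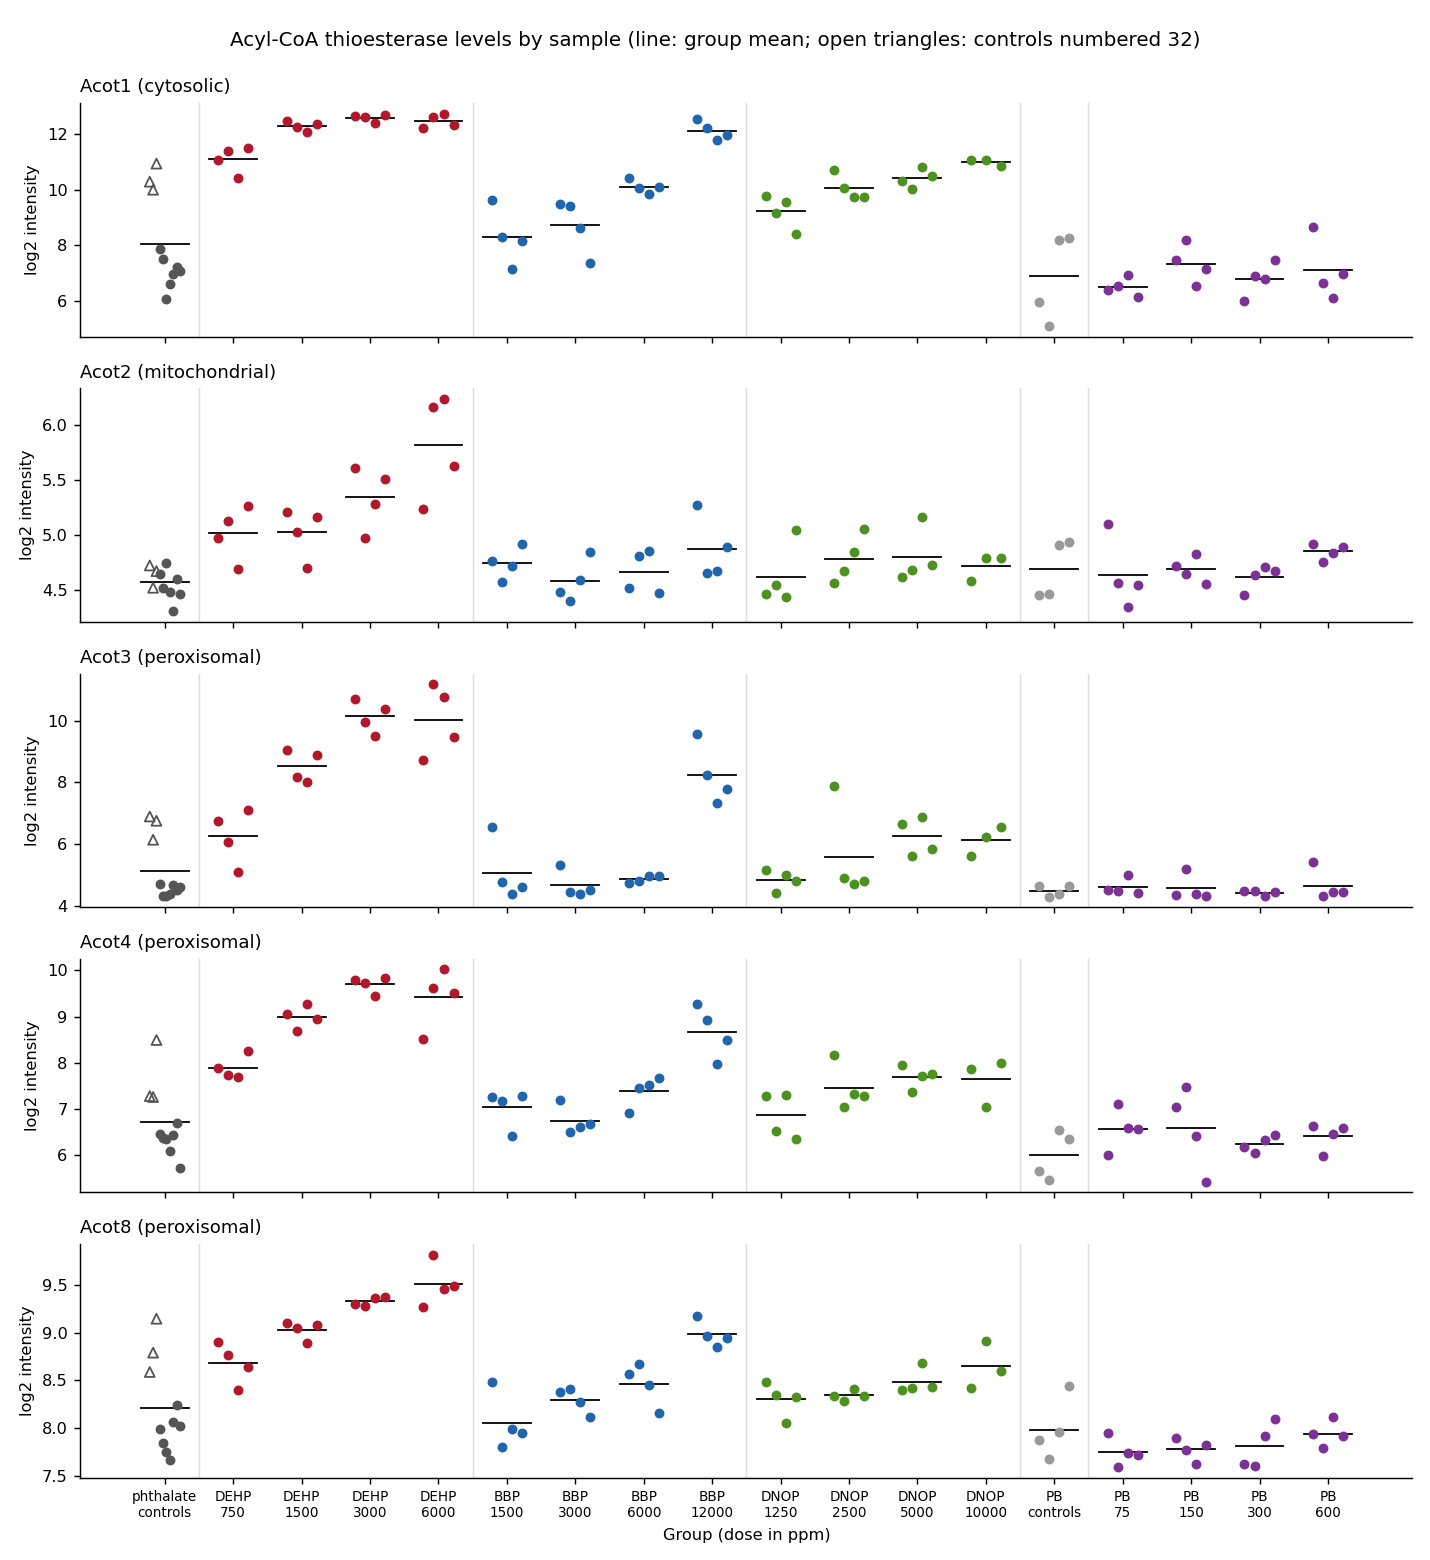
Log2 intensity (vertical axis) of the 5 genes in every sample of the 18 groups (horizontal axis, dose in ppm). Points are samples, lines are group means and open triangles are the 3 phthalate controls numbered 32. Acot1 sits between 12.04 and 12.71 in all samples at 1500 ppm DEHP and above, and the triangles lie above the other 7 controls for Acot1, Acot3, Acot4 and Acot8.

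DEHP raised all 5 genes at 3000 and 6000 ppm, and at 1500 ppm too, where the call of Acot2 depended on the processing. At 6000 ppm, 5 of 5 were called higher, in a comparison that called 9.37% of all genes tested in either direction and 5.22% higher. At 3000 ppm it was again 5 of 5, against 8.4% of all genes in either direction and 4.43% higher. At 1500 ppm it was 5 of 5, against 4.55% and 2.53%, and Acot2 was not called under 8 other processing settings. At 750 ppm 2 of 5 were called higher, Acot1 and Acot4, against 1.9% and 1.12%. The median change of the 5 genes was 2.72 at 6000 ppm (log2), against a median of -0.003 over all genes tested. At 3000 and 6000 ppm none of the 5 genes overlapped between dosed samples and controls. How many of all genes tested were likewise without overlap was not counted. Without the controls numbered 32 the changes at 6000 ppm were 5.40 for Acot1, 1.27 for Acot2, 5.54 for Acot3, 3.11 for Acot4 and 1.57 for Acot8, and all 5 were called again.

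Cytosolic Acot1 had the highest change of the 5 genes at the lowest dose, 750 ppm. At 6000 ppm DEHP its log2 intensity was 12.19, 12.61, 12.71 and 12.31 in the 4 samples, against a lowest, median and highest of 6.09, 7.37 and 10.93 in the 10 controls. All 4 dosed samples lay above every control. The change was 4.43 (95% confidence interval 3.39 to 5.47), a 21.6-fold rise with a limma adjusted p of 1.09e-09. At 750 ppm the samples had 11.07, 11.37, 10.41 and 11.48, and 3 of 4 lay above every control, those numbered 32 included. That lowest dose already gave a change of 3.05 (2.02 to 4.09, adjusted p 0.000266). From low to high dose the group means were 8.06 ± 1.70 in controls, 11.08 ± 0.48, 12.27 ± 0.17, 12.57 ± 0.13 and 12.46 ± 0.25 (SD, n = 10 for controls and 4 for each dose). The samples at 1500 ppm lay above all those at 750 ppm, while the samples at 1500, 3000 and 6000 ppm overlapped with those of the next dose.

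Mitochondrial Acot2 had the smallest change of the 5 genes at each DEHP dose. At 6000 ppm DEHP it had 5.23, 6.16, 6.23 and 5.63, against a lowest, median and highest of 4.30, 4.56 and 4.75 in controls, a change of 1.25 (0.97 to 1.52, adjusted p 2.73e-10). All 4 dosed samples were detected and all lay above the controls, of which 2 of 10 were detected. Over the scalings tried the fold ran from 1.11 to 2.64. The bead signals behind these levels were 121, 188, 218 and 158, against 88.1 to 133 in controls, so the gene stayed close to the background of the arrays. From low to high dose the means were 4.57 ± 0.14 in controls, 5.01 ± 0.24, 5.02 ± 0.23, 5.34 ± 0.28 and 5.81 ± 0.47. Each dose overlapped with the next. The call at 1500 ppm (0.46, adjusted p 0.041) was lost without background correction (0.13, adjusted p 0.0782), with the background of neqc (0.04, adjusted p 0.139), with an offset of 50 (0.21, adjusted p 0.0719) and on the deposited matrix (0.13, adjusted p 0.0818). It was also lost, with changes of 0.45 to 0.46, under median centring, with no filter on dim genes, with label numbers averaged and with DEHP fitted alone (adjusted p 0.167, 0.0564, 0.167 and 0.104). Leaving out any of 8 samples ended it too, with changes of 0.40 to 0.46 and adjusted p of 0.0536 to 0.189. Those 8 were replicates 1, 2 and 4 at 1500 ppm and phthalate control replicates 2, 5, 7, 8 and 10.

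Among the peroxisomal forms, Acot3 lay close to background in controls and was bright at the upper doses. At 3000 ppm DEHP it had 10.71, 9.96, 9.51 and 10.39, and at 6000 ppm 8.72, 11.19, 10.77 and 9.48, against a lowest, median and highest of 4.31, 4.63 and 6.89 in controls. Every sample at both doses lay above every control, and replicate 1 was the lowest at 6000 ppm. The change was 4.93 at 6000 ppm (4.05 to 5.82, adjusted p 1.99e-13) and 5.04 at 3000 ppm (4.16 to 5.93, adjusted p 1.75e-13). Since 3 of 10 controls were detected, the size of the fold rests on the background correction: over the scalings tried it ran from 9.34-fold to 38-fold at 6000 ppm. From low to high dose the means were 5.13 ± 1.04 in controls, 6.25 ± 0.89, 8.53 ± 0.52, 10.14 ± 0.52 and 10.04 ± 1.14. Samples did not overlap between 750 and 1500 ppm or between 1500 and 3000 ppm. At 750 ppm the change was 1.15 (adjusted p 0.196), and it was called without the controls numbered 32 (1.76, adjusted p 0.00859).

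Peroxisomal Acot4, the succinyl-CoA form, followed the same course at a smaller size. At 6000 ppm DEHP it had 8.52, 9.63, 10.02 and 9.52, against a lowest, median and highest of 5.73, 6.46 and 8.49 in controls, a change of 2.72 (2.12 to 3.32, adjusted p 1.71e-10). Replicate 1 lay just above the highest control, which carries number 32. The means from low to high dose were 6.72 ± 0.78 in controls, 7.90 ± 0.25, 8.99 ± 0.24, 9.70 ± 0.18 and 9.42 ± 0.64. As for Acot3, samples did not overlap between 750 and 1500 ppm or between 1500 and 3000 ppm. The call at 750 ppm (1.19, adjusted p 0.0187) was lost without replicate 2 (1.24, adjusted p 0.0552) or replicate 4 (1.07, adjusted p 0.118) of that dose. It was also lost with the background of neqc (0.62, adjusted p 0.103), under median centring (1.19, adjusted p 0.202) and with DEHP fitted alone (1.2, adjusted p 0.0662).

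Acot8, the peroxisomal form with the broad range, was also higher, by less than Acot3 and Acot4. At 6000 ppm DEHP it had 9.27, 9.81, 9.46 and 9.49, against a lowest, median and highest of 7.67, 8.04 and 9.14 in controls, a change of 1.31 (1.01 to 1.61, adjusted p 4.74e-10). All 4 dosed samples lay above every control. Its means were 8.21 ± 0.48 in controls, 8.68 ± 0.22, 9.03 ± 0.10, 9.33 ± 0.05 and 9.51 ± 0.23 from low to high dose, and the samples at 3000 ppm lay above all those at 1500 ppm. At 750 ppm the change of 0.48 was not called (adjusted p 0.0769), and it was called without the controls numbered 32 (0.75, adjusted p 4.83e-05) or without any 1 of them (0.51 to 0.57, adjusted p 0.0108 to 0.0461).

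**Figure D2:**
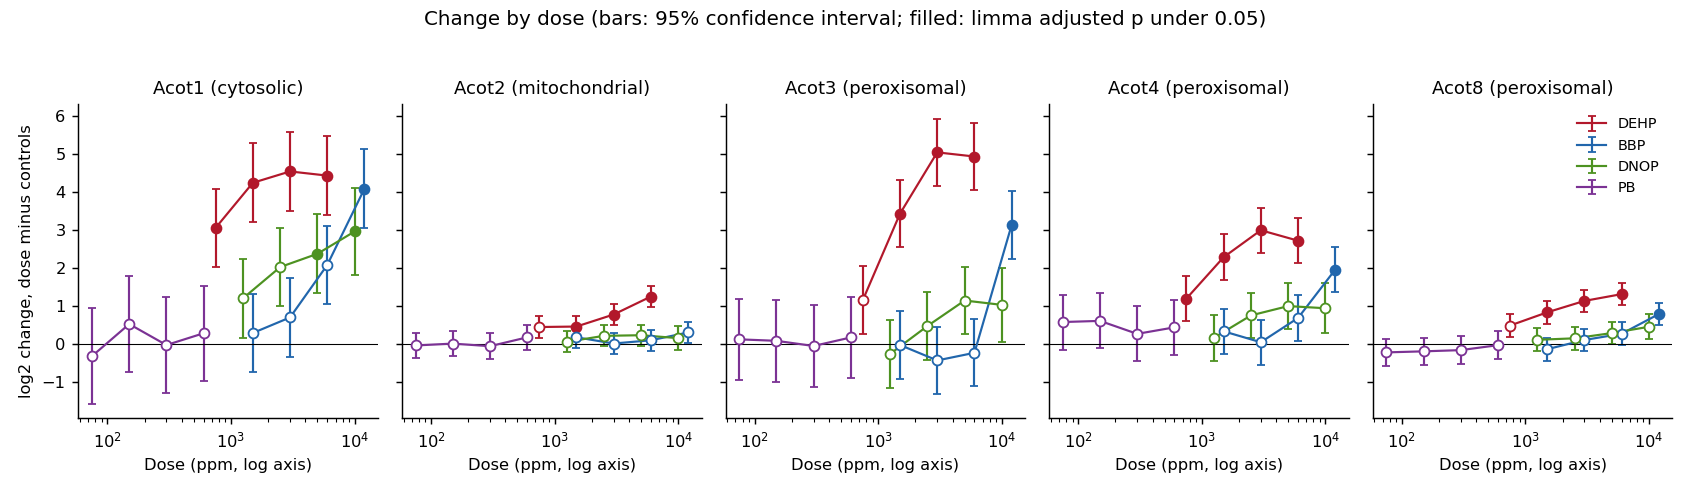
Log2 change of each gene against its controls (vertical axis) by dose in ppm (log horizontal axis), 1 line per compound, with 95% confidence intervals and filled points where the limma adjusted p was under 0.05. The DEHP line reaches 4.54 for Acot1 and 5.04 for Acot3 at 3000 ppm, and the PB intervals include 0 at every dose for all 5 genes.

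BBP raised the thioesterases at its highest dose. At 12000 ppm 4 of 5 were called higher, against 2.91% of all genes in either direction and 1.48% higher, and Acot2 was not. Acot1 had 12.52, 12.20, 11.76 and 11.97 and Acot3 9.58, 8.23, 7.34 and 7.77, and all 4 samples lay above every control for both genes. Their changes were 4.09 (3.05 to 5.12, adjusted p 9.98e-08) and 3.13 (2.24 to 4.02, adjusted p 1.07e-06). The size of the Acot3 change ran from 1.40 to 3.29 over the scalings. Acot4 had 9.27, 8.92, 7.97 and 8.5 and changed by 1.96 (1.36 to 2.55, adjusted p 6.84e-06), with 3 of 4 samples above every control. Acot8 had 9.17, 8.96, 8.85 and 8.94 and changed by 0.78 (0.49 to 1.08, adjusted p 0.000354), with 1 of 4 samples above the highest control, which carries number 32. Acot2 had 5.27, 4.65, 4.67 and 4.88, detected on 4 of 4 arrays, and its change of 0.30 was not called (0.02 to 0.58, adjusted p 0.293). Without the controls numbered 32 the changes of Acot1, Acot3, Acot4 and Acot8 were 5.06, 3.74, 2.35 and 1.05.

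At 6000 ppm BBP limma called 0 of 5 genes, against 0.0795% of all genes. An unadjusted p under 0.05 was found for 2 of 5 and for 997 of the 11324 genes tested. Acot1 had 10.41, 10.06, 9.84 and 10.10, all above the 7 controls with other numbers and all below the highest control, which carries number 32. Its change of 2.08 (1.04 to 3.11) had an adjusted p of 0.0796, which became 5.56e-06 without the controls numbered 32 (3.05). Without control replicate 1 or 3 alone, both numbered 32, it was 2.27 (adjusted p 0.0236) and 2.34 (adjusted p 0.0131). Acot8 was likewise called without the controls numbered 32 (0.53, adjusted p 0.0289). Acot3 overlapped with the controls at this dose, with 4.73, 4.80, 4.97 and 4.97 and a change of -0.24 (-1.12 to 0.65). Between 6000 and 12000 ppm the samples of Acot1, Acot3, Acot4 and Acot8 did not overlap. How many of all genes tested were likewise apart between these doses was not counted. At 1500 and 3000 ppm limma called 0 of 5 genes, and 0% of all genes. An unadjusted p under 0.05 was found for 0 of 5 at both doses, and for 403 and 435 of the 11324 genes tested. The largest change there was 0.70 for Acot1 at 3000 ppm (-0.34 to 1.73).

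The means across the BBP doses, from 1500 to 12000 ppm, were 8.31 ± 1.02, 8.72 ± 0.99, 10.10 ± 0.23 and 12.11 ± 0.33 for Acot1. They were 5.07 ± 0.99, 4.67 ± 0.45, 4.87 ± 0.12 and 8.23 ± 0.97 for Acot3, which therefore stood out at the highest dose alone. For Acot4 they were 7.04 ± 0.41, 6.75 ± 0.31, 7.39 ± 0.33 and 8.66 ± 0.56, for Acot8 8.06 ± 0.30, 8.30 ± 0.13, 8.46 ± 0.22 and 8.98 ± 0.13, and for Acot2 4.74 ± 0.14, 4.58 ± 0.19, 4.66 ± 0.20 and 4.87 ± 0.29. Acot2 was not well above background on any of the 4 arrays at 1500 ppm.

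With all controls, cytosolic Acot1 was the one member called with DNOP. At 10000 ppm 1 of 5 genes was called, against 0.0618% of all genes, all of them higher. At 5000 ppm it was 1 of 5, against 0.212% in either direction and 0.15% higher. Acot1 had 11.06, 11.05 and 10.84 in the 3 samples at 10000 ppm, a change of 2.96 (1.81 to 4.11, adjusted p 0.00798). It had 10.29, 10.00, 10.80 and 10.5 at 5000 ppm, a change of 2.37 (1.34 to 3.41, adjusted p 0.0219). At 10000 ppm 2 of 3 samples lay above every control, and at 5000 ppm none did, because the controls numbered 32 reach 10.93. The samples at 10000 ppm did not overlap with those at 5000 ppm. Both calls rest on few arrays. The call at 10000 ppm was lost when any of its 3 samples was left out (2.92 to 3.03, adjusted p 0.0559 to 0.137). The call at 5000 ppm was lost without any of its 4 samples or without control replicate 6 or 7 (2.16 to 2.50, adjusted p 0.0503 to 0.117). Both were also lost when DNOP and its controls were fitted alone, with 2.97 (adjusted p 0.212) at 10000 ppm and 2.38 (adjusted p 0.0984) at 5000 ppm.

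Below 5000 ppm DNOP limma called 0 of 5 genes, against 0.238% of all genes at 2500 ppm and 0% at 1250 ppm. An unadjusted p under 0.05 was found for 2 of 5 and 1 of 5, and for 979 and 455 of the 11324 genes tested. Acot1 at 2500 ppm had 10.69, 10.06, 9.73 and 9.72, a change of 2.02 (adjusted p 0.0688). With the replicate number of the labels as a block it was called (2.01, adjusted p 0.0326). It was also called without any 1 of the controls numbered 32 (2.18 to 2.29, adjusted p 0.0186 to 0.0494). Without all 3 of them Acot1 was called at every DNOP dose, with changes of 2.17, 2.99, 3.34 and 3.93 from low to high. Of all 11324 genes, 3, 58, 79 and 31 were called at these doses in that fit. Acot4 was then called at 2500, 5000 and 10000 ppm (1.15, 1.39 and 1.34), Acot8 at 5000 and 10000 ppm (0.55 and 0.71) and Acot3 at 5000 ppm (1.75, adjusted p 0.0224). Array quality weights, with all controls kept, called Acot1 at 2500 ppm (2.31), Acot4 at 2500, 5000 and 10000 ppm (0.86, 1.14 and 1.37) and Acot3 (1.48) and Acot8 (0.50) at 10000 ppm. They also called more of all 11324 genes at these doses, 224, 124 and 296, against 27, 24 and 7 without weights. Acot2 was not called at any DNOP dose in any of these fits.

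With all controls, the other members under DNOP were as follows. Acot3 had 5.62, 6.21 and 6.56 at 10000 ppm, a change of 1.03 (0.04 to 2.01, adjusted p 0.927), and at 2500 ppm replicate 1 stood alone at 7.89 while the other 3 samples had 4.71 to 4.88. Acot4 had 7.87, 7.06 and 8.01, a change of 0.94 (0.28 to 1.60, adjusted p 0.651). Acot8 had 8.42, 8.91 and 8.60, a change of 0.45 (0.12 to 0.78, adjusted p 0.673). Each of these 3 genes overlapped with the controls at every DNOP dose. Acot2 had 4.58, 4.79 and 4.79, with a change of 0.15 (-0.16 to 0.46). From 1250 to 10000 ppm the means were 9.23 ± 0.61, 10.05 ± 0.46, 10.40 ± 0.34 and 10.99 ± 0.12 for Acot1, and 6.87 ± 0.50, 7.46 ± 0.49, 7.70 ± 0.24 and 7.64 ± 0.51 for Acot4.

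DEHP and BBP shared the doses 1500, 3000 and 6000 ppm, where they can be set against each other directly and without the controls. At 6000 ppm 5 of 5 genes were higher with DEHP than with BBP, against 2.2% of all genes called in either direction and 1.63% called higher. At 3000 ppm it was 5 of 5, against 4.1% and 2.09%, and at 1500 ppm 4 of 5, against 1.69% and 1.12%. At 3000 ppm the samples of Acot3 had 10.71, 9.96, 9.51 and 10.39 with DEHP, against 5.33, 4.43, 4.39 and 4.51 with BBP, of which 1 of 4 was detected. That is a difference of 5.48 (4.44 to 6.52, adjusted p 9.21e-12). Its size rests on the background correction and ran from 3.48 to 5.71 over the scalings. At 6000 ppm it was 5.17 (4.13 to 6.21) and at 1500 ppm 3.46 (2.42 to 4.5), with 3.34 to 5.33 and 1.66 to 3.46 over the scalings. Acot4 differed by 1.95, 2.95 and 2.04 at 1500, 3000 and 6000 ppm, and Acot8 by 0.97, 1.03 and 1.04. The Acot8 call at 1500 ppm was lost under median centring of the arrays (0.87, adjusted p 0.237). Samples of the compounds did not overlap in any of these 9 contrasts of peroxisomal forms. The share of all genes without such overlap was not counted.

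For Acot1 the difference between DEHP and BBP was 3.96 at 1500 ppm (2.74 to 5.17), 3.84 at 3000 ppm (2.63 to 5.06) and 2.35 at 6000 ppm (1.14 to 3.57, adjusted p 0.0179). At 6000 ppm the samples had 12.19, 12.61, 12.71 and 12.31 with DEHP, against 10.41, 10.06, 9.84 and 10.10 with BBP, without overlap. The call at 6000 ppm was lost without DEHP replicate 2 or 3 or BBP replicate 2 or 3 of that dose (2.27 to 2.34, adjusted p 0.0519 to 0.0750, limma) and when arrays were centred on their medians (2.18, adjusted p 0.0828). Acot2 differed by 1.15 at 6000 ppm (0.83 to 1.48, adjusted p 7.62e-07) and by 0.76 at 3000 ppm (0.44 to 1.09). At 1500 ppm its levels were 5.21, 5.03, 4.70 and 5.16 with DEHP, against 4.76, 4.57, 4.72 and 4.91 with BBP, where no array was well above background, and the difference had an interval of -0.04 to 0.61 (adjusted p 0.659). DNOP shared no dose with DEHP or BBP, so their values are only set side by side. At 5000 ppm DNOP Acot1 averaged 10.40 ± 0.34, at 6000 ppm DEHP 12.46 ± 0.25 and at 6000 ppm BBP 10.10 ± 0.23.

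**Figure D3:**
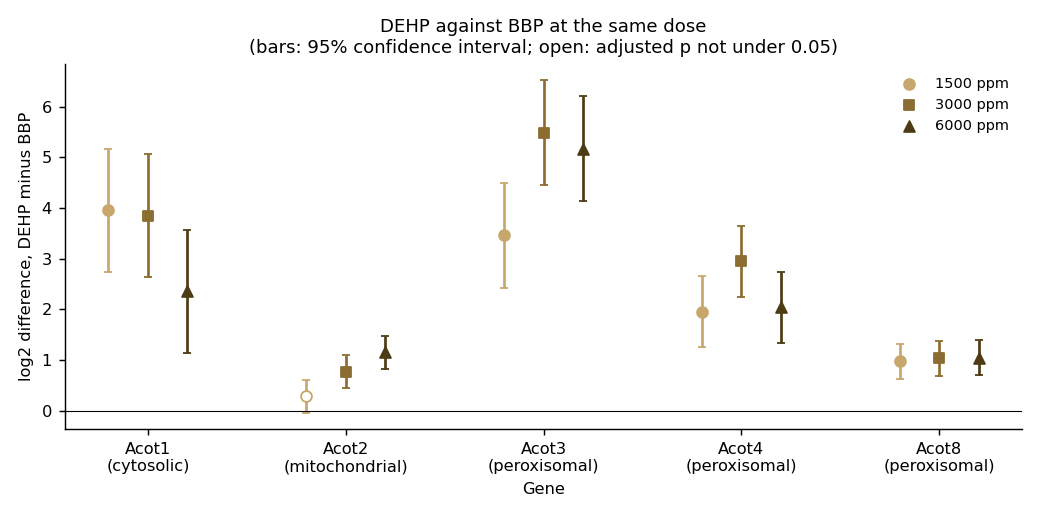
Log2 difference between DEHP and BBP at the same dose (vertical axis) for the 5 genes (horizontal axis), with 95% confidence intervals, 4 samples of each compound. All differences lie above 0 except that the interval of Acot2 at 1500 ppm (open) includes 0, and the highest value is that of Acot3 at 3000 ppm, 5.48, which fell to 3.48 under another scaling.

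No member was called with PB. Limma called 0 of 5 genes at 75, 150, 300 and 600 ppm, while 6.46%, 11.6%, 8.42% and 9.96% of all genes were called at those doses. An unadjusted p under 0.05 was found for 0 of 5 at any dose, and for 2488, 3115, 2604 and 2775 of the 11324 genes tested. At 600 ppm Acot1 had 8.67, 6.67, 6.13 and 6.97, against 5.98, 5.12, 8.19 and 8.28 in the PB controls, and its change of 0.28 had an interval of -0.98 to 1.54. PB control replicates 1 and 2 lay below replicates 3 and 4, which both carry number 12. Replicate 1 was the array with the lowest share of genes detected of all 77, and without it the Acot1 change at 600 ppm was -0.03. Acot4 had 6.64, 5.98, 6.46 and 6.60, against 5.65, 5.46, 6.56 and 6.36 in controls, a change of 0.44 (-0.29 to 1.16, adjusted p 0.482). Acot8 had 7.94, 7.80, 8.12 and 7.92, against 7.87, 7.68, 7.96 and 8.44, a change of -0.03 (-0.39 to 0.33). For Acot2 and Acot3, 1 of 4 arrays each was detected at 600 ppm, and their levels were close to background, at 4.85 ± 0.07 and 4.65 ± 0.52, against 4.69 ± 0.26 and 4.48 ± 0.17 in controls, where Acot3 was not well above background on any array.

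Across the PB doses from 75 to 600 ppm the means were 6.51 ± 0.33, 7.35 ± 0.69, 6.80 ± 0.60 and 7.11 ± 1.10 for Acot1, 6.56 ± 0.45, 6.59 ± 0.89, 6.25 ± 0.17 and 6.42 ± 0.30 for Acot4, and 7.75 ± 0.15, 7.78 ± 0.11, 7.81 ± 0.24 and 7.94 ± 0.13 for Acot8. Acot1 was detected on 1 of 4 arrays at 75 ppm. Acot2 was not well above background on any array at 75, 150 and 300 ppm, nor Acot3 at 300 ppm. With median centring of the arrays in place of quantile normalization, which moved the median of all genes by 0.16 to 0.54 in the PB comparisons, Acot8 was called higher at 150, 300 and 600 ppm (0.85, 0.76 and 1.01) and Acot4 at 150 and 600 ppm (1.25 and 1.08). Of all 11324 genes, that setting called 5076, 3822 and 5109 at 150, 300 and 600 ppm, so these calls are not particular to the members. The sign of Acot8 under PB depended on a scaling that moved the median of all genes. Between the controls of both parts of the study limma called 0 of 5 genes, against 4.71% of all genes. An unadjusted p under 0.05 was found for 2 of 5 and for 2148 of the 11324 genes tested. Acot1 was 6.89 ± 1.59 in PB controls and 8.06 ± 1.70 in phthalate controls, a difference of -1.20 (-2.25 to -0.14).

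Whether cytosolic, mitochondrial and peroxisomal forms changed by different amounts was tested on the difference of 2 genes within each sample. Setting that difference in dosed samples against controls takes away the brightness of each probe. The test was a two-sided exact permutation test over samples, for 10 pairs of genes at the highest dose of each compound, and p-values were adjusted over these 40 tests. At 6000 ppm DEHP 8 of 10 pairs differed, at 12000 ppm BBP 8, at 10000 ppm DNOP 4 and at 600 ppm PB 0. With 4 samples against 10 the smallest p this test can give is 0.000999. The test takes the 10 phthalate controls as separate samples, though they carry 4 label numbers and the 3 numbered 32 stood apart. It leaves out the block that limma used, so its p-values may be too small. When samples of 1 label number were averaged first, no p can go below 0.0286. The lowest adjusted exact permutation p was then 0.0762, so the averaged samples cannot decide whether the calls hold. The differences called above were then as large, for example 3.33 for Acot1 minus Acot2 and -3.78 for Acot2 minus Acot3 at 6000 ppm DEHP, with 0 pairs past the threshold.

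At 6000 ppm DEHP cytosolic Acot1 changed by 3.15 more than mitochondrial Acot2 (adjusted exact permutation p 0.00444). The difference Acot1 minus Acot2 within a sample, which still holds the brightness of both probes, was 6.64 ± 0.23 in dosed samples. In controls it was 3.49 ± 1.66 (SD), and all 4 dosed values lay above every control. Peroxisomal Acot3 also changed by more than Acot2 (the difference Acot2 minus Acot3 was -3.66), and so did Acot4 (-1.46 for Acot2 minus Acot4). Peroxisomal Acot8 and mitochondrial Acot2 changed by amounts that the test did not separate, with a difference of -0.05 for Acot2 minus Acot8 (adjusted p 0.957). Some other ways of handling the low signal of Acot2 did call that pair. The difference was -0.66 without background correction (adjusted p 0.0152), -1.29 with the background of neqc and -0.68 on the deposited matrix. The background of neqc is limma's own estimate from all detection p-values. With an offset of 50 the pair was not called (-0.53, adjusted p 0.073). Nor was it called under median centring (-0.26, adjusted p 0.457) or without the controls numbered 32 (-0.29, adjusted p 0.209). The peroxisomal forms were unequal among themselves, with Acot3 above Acot4 by 2.21, Acot3 above Acot8 by 3.61 and Acot4 above Acot8 by 1.41 (adjusted p 0.00444, 0.00444 and 0.00666). These stayed called but were smaller with neqc, at 1.04, 1.87 and 0.83, and without background correction, at 1.23, 2.14 and 0.90. Acot1 and Acot3 were not separated (-0.51, adjusted p 0.392), and which of them changed more depended on the scaling. The difference was 0.65 without background correction, 1.11 with neqc, 0.24 with an offset of 50 and 0.65 on the deposited matrix. Under median centring it was -0.64, and none of these was called. The lead of Acot1 over Acot4 (1.69, adjusted p 0.034) was lost without DEHP replicate 1, 2 or 4 (1.48 to 1.77, adjusted p 0.0559 to 0.101). It was also lost under median centring (1.52, adjusted p 0.0571).

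At 12000 ppm BBP Acot1 led Acot2 by 3.75, Acot8 by 3.28 and Acot4 by 2.11. The difference between Acot1 and Acot3 was 0.94 (adjusted p 0.101), and it was called without BBP replicate 1 (1.26, adjusted p 0.04) and without the controls numbered 32 (1.32, adjusted p 0.0146). Acot3 lay near background in most controls, and the pair was also called without background correction (1.85), with an offset of 50 (1.57), on the deposited matrix (1.83) and with the background of neqc (2.67). Under median centring it was not called (0.997, adjusted p 0.0981). Acot2 minus Acot8 was -0.47 (adjusted p 0.145). It was called without background correction (-0.53), with neqc (-0.81), on the matrix (-0.53) and without the controls numbered 32 (-0.71). It was not called with an offset of 50 (-0.56, adjusted p 0.0618) or under median centring (-0.67, adjusted p 0.054). Acot3 led Acot4 by 1.16 (adjusted p 0.0094), a difference that became -0.0258 with the background of neqc and 0.35 without background correction or on the matrix, with the call lost in all 3. Acot3 led Acot8 by 2.34, which neqc made 0.56 and no longer called (adjusted p 0.198). At 10000 ppm DNOP the 4 pairs that differed were those of Acot1 with each other gene, by 2.77 over Acot2, 1.92 over Acot3, 2.00 over Acot4 and 2.49 over Acot8 (adjusted p 0.0147, 0.00932, 0.0147 and 0.00932). The differences from Acot2 and Acot4 were lost without DNOP replicate 1 or 2 (1.67 to 2.78, adjusted p 0.0606 to 0.132). Without the controls numbered 32, 8 pairs differed, among them Acot2 minus Acot3 (-1.45), Acot2 minus Acot4 (-1.15), Acot2 minus Acot8 (-0.53) and Acot3 minus Acot8 (0.93). At 600 ppm PB the differences ran from -0.25 to 0.46, the lowest adjusted p was 0.149, and 4 samples against 4 allow no p below 0.0286. Those samples carry only 2 label numbers at 600 ppm and 3 in the PB controls.

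**Figure D4:**
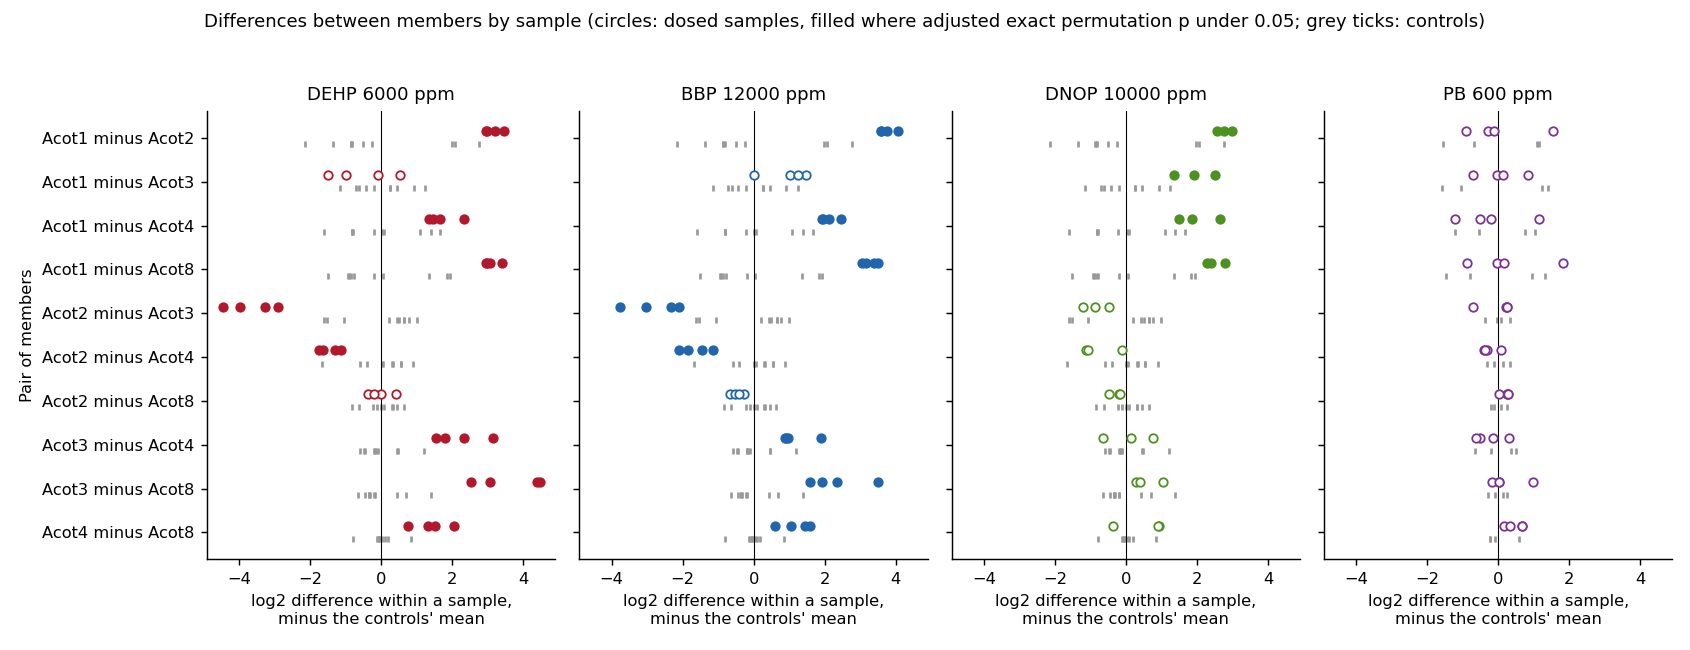
Difference of 2 genes within each sample minus the mean of that difference in controls (horizontal axis, log2), for 10 pairs of genes (vertical axis) at the highest dose of each compound. Circles are dosed samples, filled where the adjusted exact permutation p was under 0.05, and grey ticks are controls. With DNOP the 4 filled rows are those of Acot1, and with PB none is filled.

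The group means of Acot1 spanned 6.06 on the log2 scale, those of Acot3 5.72, Acot4 3.69, Acot8 1.75 and Acot2 1.25. For every gene the highest group was 3000 or 6000 ppm DEHP, at 12.57 for Acot1, 5.81 for Acot2, 10.14 for Acot3, 9.70 for Acot4 and 9.51 for Acot8. The lowest was a PB group or the PB controls for 4 genes and the phthalate controls for Acot2. Most of the 17 neighbours in each order overlapped. Samples were apart in 2 places for Acot1 (10000 above 5000 ppm DNOP, and 12000 ppm BBP above 750 ppm DEHP), in 1 for Acot3 (12000 ppm BBP above 750 ppm DEHP), in 1 for Acot8 (3000 above 1500 ppm DEHP) and in none for Acot2 and Acot4.

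Over the 18 group means, which share arrays, controls and normalization, the Pearson correlation between members was lowest for Acot1 with Acot2 (r = 0.676) and highest for Acot3 with Acot4 (r = 0.970), the peroxisomal neighbours. By Spearman correlation the order differed, with Acot2 and Acot8 lowest (0.703) and Acot1 and Acot8 highest (0.981). Among all other genes tested, the patterns most like Acot1 were those of Eci1 (r = 0.992), an isomerase of mitochondrial fatty acid oxidation, Aldh3a2 (0.988), a fatty aldehyde dehydrogenase, and Cyp4a31 (0.98), a cytochrome of the fatty acid hydroxylase family. Those most like Acot8 were Cpt2 (0.987), the inner carnitine palmitoyltransferase of mitochondria, Mgll (0.983), a monoglyceride lipase, and LOC100044221 (0.983). Most like Acot4 were Abhd1 (0.978), Slc22a5 (0.974), the carnitine transporter of the cell membrane, and Hsd17b11 (0.974), a lipid droplet dehydrogenase. Most like Acot3 were Clstn3 (0.983), LOC100047046 (0.977) and Cbfa2t3 (0.972), and most like Acot2 were Apmap (0.960), Scn4b (0.949) and Slc39a5 (0.943). By Spearman correlation Eci1, Cpt2, LOC100044221 and Apmap stayed among the 3 most alike genes of their member. The other named genes ranked lower, and the farthest were Slc39a5 at rank 343.5, LOC100047046 at 191, Slc22a5 at 52.5 and Scn4b at 48.

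Of 13 other acyl-CoA thioesterases and related enzymes listed, 10 were tested. With DEHP at 6000 ppm 2 were called higher and 0 lower, where 5.22% of all genes were called higher, with a median change of 0.09 against -0.003 over all genes. These were Acot10 (0.56) and Acot7 (0.55), a thioesterase best known from brain. Acot12, the cytosolic acetyl-CoA thioesterase, was called at 1500 and 3000 ppm DEHP (0.61 and 0.69) and had 0.48 at 6000 ppm (adjusted p 0.0849). Acnat2, a peroxisomal acyltransferase, had 1.17 at 6000 ppm (adjusted p 0.0501), and Acot9, Acot11, Acot13, Them4, Them5 and Baat were likewise not called there. At 600 ppm PB Acot11 was higher (0.67), and Acot7 (-0.48) and Acot13 (-0.68) were lower, where 9.96% of all genes were called in either direction.

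Genes that make or oxidise acyl-CoAs were also called higher at 6000 ppm DEHP, where 5.22% of all genes were called higher. Of 21 tested genes of peroxisomal oxidation and coenzyme A, 11 were called higher and 0 lower, with a median change of 0.72, among them Ehhadh (4.53), the bifunctional enzyme of peroxisomal oxidation, Pex11a (1.84), a peroxisome division protein, and Crat (1.79), the carnitine acetyltransferase. Of 20 genes of mitochondrial oxidation and carnitine, 10 were higher and 0 lower, with a median of 0.85, led by Cpt1b (2.10), Slc22a5 (1.72), Decr1 (1.38) and Acadl (1.38). Of 14 acyl-CoA synthetases and fatty acid carriers, 6 were higher and 0 lower, with a median of 0.55, led by Slc27a1 (1.69), a fatty acid transporter, Acsm3 (0.98), Acss2 (0.79) and Acsl4 (0.64). At 12000 ppm BBP the numbers called higher were 12 of 21, 9 of 20 and 3 of 14, against 1.48% of all genes. At 10000 ppm DNOP they were 1 of 21 (Ehhadh, 2.49, adjusted p 0.0118), 0 of 20 and 0 of 14, against 0.0618%. At 600 ppm PB they were 0 of 21, 0 of 20 and 1 of 14, with 1 of 21 and 1 of 14 lower, against 9.96% of all genes in either direction.

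Markers were read to check the labelled tissue. In bulk tissue, fewer cells of a type and less RNA per cell cannot be told apart. Of 7 hepatocyte markers, 6 were detected on most arrays of each group that follows, and the summed signal of all 7 over background was 28855 to 41503 at 6000 ppm DEHP and 25043 to 43488 in phthalate controls. Kupffer cell and macrophage markers (6 on the array, of which 5 were detected on most arrays of both groups and Cd5l on none) summed to 1205 to 2198 at 6000 ppm DEHP, with a median of 1473, against 442 to 2453 with a median of 667 in controls. Their part in the thioesterase results was not tested. At 12000 ppm BBP that sum was 557 to 892. At 600 ppm PB it was 1004 to 2635, against 156 to 734 in PB controls. Of 4 fat cell markers, Adipoq, Plin and Retn were not detected on any array of these groups. The fourth, Cfd, was detected on at least 1 array at 6000 ppm DEHP, at 12000 ppm BBP and in both control groups. The 4 summed to 15.4 to 24.9 at 6000 ppm DEHP, against 0.865 to 22 in phthalate controls, and their part in the results was likewise not tested.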

How the data were processed

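Total RNA from mouse liver was extracted with Trizol and RNeasy columns, treated with DNase I and labelled as biotin cRNA, per the labels' protocols. The deposited signal table gives 1 intensity per array ID and sample, not normalized, and a detection p-value beside each, per the file headers. A second deposited table holds log2 values whose normalization is not given in the sources used here, and it served as an alternative. How several probes of a gene were combined is not stated by the authors, and cross-hybridisation between the close relatives Acot1 to Acot4 was not tested.

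Each array's background (mean and SD) was recovered from detection p-values, of which 79.1% lay on a grid of 798 steps (within 0.01 of a step). Of the p-values between 0 and 1, those on the grid were 46 of 46 for Acot3 and 4 of 4 for Acot4. For Acot2 they were 9 of 77, for Acot1 3 of 31 and for Acot8 37 of 69. Intensities were corrected with normexp (offset 16), put on the log2 scale and quantile normalized. Genes detected (p under 0.05) on at least 3 arrays, 11324 of 18138, were fitted in limma 3.58.1 (R 4.3.3) with 18 group means over 77 samples, and the label number as a random block (correlation 0.0986, statmod 1.5.0). P-values were adjusted by Benjamini-Hochberg within a comparison. Pairs of members were compared by exact permutation in Python 3.11.15. Of the array IDs 14307 matched RefSeq symbols and 2927 synonyms, and 904 kept the file's name. Between 36.9% and 46.6% of genes were detected per array, and mean signals ran from 132 to 520. Precision is limited by the number of arrays. No 2 samples held identical values, and the code was tested on simulated data.

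Replicates were numbered in accession order, and the replicate block used the labels' own replicate marks. In 16 comparisons the correlation of samples with the same replicate mark ran from -0.242 to 0.543 and exceeded 0.1 for every pair in 2, so the replicate number was not taken as pairing. The 5 members, gene lists and marker lists were chosen with earlier results of these data known. Like genes were the 3 with the highest Pearson correlation over group means, and pathway genes are named by their change at 6000 ppm DEHP among those called, and 1 gene that this rule names is not reported here. Alternatives covered background, offset, scaling, filter, block, weights, samples and the deposited matrix.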

Additional observations from a re-analysis of the deposited data

Results flagged for a closer look

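In 7 of 85 sets of 4 to 10 samples (5 genes by group), 1 sample lay far from the rest by Dixon's test, which chance does in about 1 in 20 sets. Of these, 5 were high values of Acot3 in groups whose other samples lay near background. At 2500 ppm DNOP replicate 1 had 7.89 while the others had 4.71 to 4.88. At 3000 ppm BBP replicate 1 had 5.33 (others 4.39 to 4.51). With PB, replicate 3 at 75 ppm had 4.99 (others 4.42 to 4.52), replicate 2 at 150 ppm had 5.18 (4.33 to 4.37) and replicate 1 at 600 ppm had 5.42 (4.31 to 4.43). Acot4 was low in replicate 3 at 1500 ppm BBP, at 6.42 (others 7.18 to 7.28). Acot8 was high in replicate 3 at 5000 ppm DNOP, at 8.68 (others 8.39 to 8.43). The causes were not tested.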

How the results depend on the processing

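A change of sign was counted only where the value or its alternative was called. Of 2790 alternative values of single genes and pairs, 2659 kept their direction where called and their side of the threshold. The call was lost in 69 and gained in 58, and 4 changed sign. The 4 were Acot8 with PB under centring of each array on its median, called at 0.85, 0.76 and 1.01 at 150, 300 and 600 ppm, and Acot3 minus Acot4 at 12000 ppm BBP, at -0.0258 with the background of neqc. That centring moved the median of all genes by 0.54, 0.46 and 0.54 at these PB doses and by -0.44 between PB and phthalate controls. Members called became 2, 1, 2 and 3, where 5076, 3822, 5109 and 4370 of 11324 genes were called. With the replicate block, 1 member was called at 6000 ppm BBP (Acot1, 2.06, adjusted p 0.0391) and 1 at 2500 ppm DNOP (Acot1, 2.01, adjusted p 0.0326), and no other count of members changed by over 1.5 times. Among all 11324 genes, 26 and 51 were called in these 2 comparisons. Without the controls numbered 32, members called were 2 at 6000 ppm BBP, 1, 2, 4 and 3 at the 4 DNOP doses from low to high and 4 at 750 ppm DEHP. Of all 11324 genes, 28, then 3, 58, 79 and 31, and 334 were called in these comparisons. At 10000 ppm DNOP 8 pairs then differed. Array quality weights gave 2 at 6000 ppm BBP and 2, 2 and 4 at 2500, 5000 and 10000 ppm DNOP. These weights also raised the calls among all 11324 genes, to 108, 224, 124 and 296 from 9, 27, 24 and 7. The background of neqc and centring each gave 1 at 6000 ppm BBP and 1 at 750 ppm DEHP. Among all 11324 genes, neqc called 13 and 195 there and centring 10 and 43. Fitting 1 compound with its controls gave 0 at 5000 and 10000 ppm DNOP and 1 at 750 ppm DEHP, with fewer samples behind the spread. Genes called among all 11324 were then 30, 4 and 146. Averaging samples of 1 label number left 0 pairs differing at 6000 ppm DEHP, 12000 ppm BBP and 10000 ppm DNOP, where no p can go below 0.0286 and the differences were as large (Acot1 minus Acot2 with BBP was 3.93, where single samples gave 3.75). Leaving out 1 replicate at a time gave 0 to 1 members at 6000 ppm BBP, 2500 ppm DNOP and 10000 ppm DNOP, 0 to 2 at 5000 ppm DNOP, 1 to 3 at 750 ppm DEHP, 4 to 5 at 1500 ppm DEHP and between DEHP and BBP at 6000 ppm. Pairs then numbered 7 to 8 with DEHP, 8 to 9 with BBP and 2 to 4 with DNOP. Without the dimmest array, PB control replicate 1 (chosen after seeing the data), members called with PB were 0. Causes not named here were not tested. Acot2 and Acot3 lay at background in most controls, which limits the size of their changes.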
